A study of Mus musculus with 5 samples.

Results

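The mouse cell cycle genes described here are 45 named genes with roles in DNA replication or in cell division, out of 32285 genes in a single-cell RNA count matrix of mouse kidney. They were chosen by symbol from lists of known cycle genes, and each matched exactly 1 row of the matrix. In total 21 of them act in S phase or at its start (the S genes) and 22 act in G2 and mitosis (the G2/M genes). Ccnd1, a D-type cyclin of G1, and Stmn1, a tubulin-binding protein, are also used outside the cycle and were therefore described singly.

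The study followed the kidney after unilateral ischemia-reperfusion (UIR), in which the left renal pedicle was clamped for 35 min and the right kidney was left in place. The 5 samples were kidney from UIR mice at day 1, 3, 14 and 28 and from sham-operated mice, 1 sample each, from male C57BL/6J mice aged 6 to 8 weeks, with 3 mice behind each kidney sample and no engineered allele named for any group. Cells were dissociated and sequenced by droplet 3′ RNA counting, in which each captured RNA molecule is counted once by its unique molecular identifier (UMI), so that counts do not scale with transcript length. The labels gave no link between the 5 barcode numbers of the matrix and the 5 conditions, so the data were treated as 1 pooled sample, the libraries were named by number only, and no test between conditions was made.

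The matrix held between 82426945 and 139382799 UMIs per library, and 57828 cells were kept (8292 to 19132 per library, with a median of 4038 to 5324 UMIs per cell). Only 355 barcode sequences occurred as kept cells in more than 1 library, against 316.9 from the sizes of the libraries alone. The labels call the cell type "Goblet cell", but goblet markers were close to absent: Muc2 had 21 UMIs, Agr2 had 55 UMIs and Zg16 had 0 UMIs in all kept cells. Each cell was therefore given a class from known kidney and immune marker genes, which placed 55117 cells in a class. The largest class was proximal tubule, the segment that reabsorbs most of the filtrate, with 46365 cells. Of these, 2086 also carried injury markers, a list of 9 genes (Havcr1, Krt20, Vcam1, Sox9, Cdh6, Krt8, Krt18, Lcn2 and Cd44). Further classes were monocyte/macrophage (1666 cells), T and natural killer (NK) cells (1422), thick ascending limb (1387), neutrophil (1329), cells with injury markers but no segment markers (741), distal convoluted tubule (525), B (348), endothelial (322), collecting duct principal (321), stromal (317), dendritic (152), intercalated (144) and podocyte (78).

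Levels are given as CPM, the UMIs of a gene or list per 1000000 UMIs of the class, with an exact 95% Poisson interval in square brackets. Intervals, here and for shares of cells, cover counting error only. They are too narrow, because UMIs of these genes were spread unevenly over cells: after thinning to 1000 UMIs per cell, the variance of the summed count of the G2/M genes other than Cks2 was 5.50 times its mean in proximal tubule cells. As background, droplets taken to hold no cell (ambient droplets, barcodes at UMI ranks 45000 to 90000 of each library) were measured in the same way. The largest of these barcodes had 121, 85, 489, 203 and 225 UMIs in libraries 1 to 5, and library 3 gave 5533 of their 7968 S UMIs. Whether small cells lay among the barcodes of library 3 was not tested.

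A cell that divides first copies its DNA in S phase and then separates the copies in mitosis. The S genes are switched on by E2F transcription factors, and most G2/M genes are switched on later by the MuvB core together with B-MYB and FOXM1. Cell cycle genes are held off in quiescent cells by the DREAM complex. The MuvB core binds promoters at the cell cycle genes homology region (CHR), and many of these promoters also hold CCAAT boxes, which NF-Y binds. Most cells of the adult kidney are quiescent, but surviving tubule cells re-enter the cycle after ischemia, and lymphocytes and macrophages can divide in inflamed tissue.

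To place these promoter elements in the lists, the 250 bases before the RefSeq start of each gene (GRCm38.p6) were searched on both strands. A window was present for 36 of the 45 genes (17 S and 19 G2/M genes), and Mcm7, Uhrf1 and Prc1 had more than 1. No window was listed for Mcm4, Gins2, Esco2, Ccne2, Ccnd1, Ccna2, Aurkb, Tpx2 and Stmn1. The CHR letters TTTGAA or TTTAAA occurred in 12 of 20 G2/M windows (60%) and in 3 of 19 S windows (15.8%), against 25.2% of all 32851 windows. CCAAT occurred in 85% of G2/M and 68.4% of S windows, against 33.9% of all windows, and both elements together in 55%, 10.5% and 8.78%. The E2F letters TTTCCCGC, TTTGGCGC, TTTGCCGC or TTTCGCGC occurred in 6 of 19 S windows (31.6%), in 1 of 20 G2/M windows (5%) and in 1.86% of all windows. The windows of the G2/M genes Kif20b and Nusap1 and of the S genes Cdt1, Tyms and Ung held none of these letters. A match of letters is a description and not a bound site.

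The following windows are shown because they belong to the most abundant S and G2/M genes that hold the searched letters, in capitals: E2F letters in Mcm6 and Mcm7, which code for subunits of the replicative helicase, CHR letters in Mki67, which codes for the Ki-67 coat protein of mitotic chromosomes, and in Top2a, the topoisomerase that untangles sister DNA. Cks2, which codes for a small partner of cyclin-dependent kinases, is shown with its CCAAT letters and was added after its values were seen, because its pattern differed from the rest of its list. Its window held no CHR letters. Letters that lie on the opposite strand appear as their reverse complement, such as TTCAAA in Top2a and ATTGG in Cks2, and in Mcm6 a pair of E2F matches overlap in 1 capital run. The windows lie at chr1:128359706-128359955 (minus strand, Mcm6), chr7:135716380-135716629 (minus strand, Mki67), chr11:99024190-99024439 (minus strand, Top2a) and chr13:51644982-51645231 (plus strand, Cks2). For Mcm7, whose window lies within an annotated exon, 30 bases are shown (chr5:138172030-138172059, minus strand).
Mcm6: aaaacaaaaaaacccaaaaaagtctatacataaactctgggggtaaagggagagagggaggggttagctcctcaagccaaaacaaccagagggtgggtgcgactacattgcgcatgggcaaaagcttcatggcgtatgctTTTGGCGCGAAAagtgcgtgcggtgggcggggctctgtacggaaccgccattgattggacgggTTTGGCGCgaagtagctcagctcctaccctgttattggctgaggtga
Mcm7: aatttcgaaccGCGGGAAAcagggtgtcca
Mki67: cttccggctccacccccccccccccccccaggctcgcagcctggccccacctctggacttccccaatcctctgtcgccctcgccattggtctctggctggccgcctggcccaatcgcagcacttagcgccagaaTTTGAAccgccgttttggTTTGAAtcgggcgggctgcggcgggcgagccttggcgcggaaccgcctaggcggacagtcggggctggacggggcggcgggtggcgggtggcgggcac
Top2a: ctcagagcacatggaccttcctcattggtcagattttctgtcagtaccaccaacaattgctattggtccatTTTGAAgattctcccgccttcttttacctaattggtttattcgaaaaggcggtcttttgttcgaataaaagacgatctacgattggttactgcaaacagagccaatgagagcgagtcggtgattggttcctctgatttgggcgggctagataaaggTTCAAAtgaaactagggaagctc
Cks2: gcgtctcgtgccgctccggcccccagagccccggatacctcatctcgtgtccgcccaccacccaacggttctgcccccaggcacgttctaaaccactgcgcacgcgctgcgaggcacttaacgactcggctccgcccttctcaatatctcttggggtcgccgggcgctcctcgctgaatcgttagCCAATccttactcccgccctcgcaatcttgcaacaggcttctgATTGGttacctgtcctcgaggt

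T and NK cells had the highest summed level of both lists in the pooled cells. For the S genes this held under every alternative processing, but for the G2/M genes (with Cks2) it did not: stromal cells were higher without library 1 (863 against 756.6 CPM), dendritic cells in a mean over cells (407.7 against 387.3 CPM), and cells with injury markers but no segment when classes came from Leiden clusters (652.9 against 591.6 CPM). The S genes summed to 834.2 CPM [801.6 to 867.7] in these cells, against 501.9 CPM [475.9 to 528.9] in stromal cells, 440.1 CPM in dendritic cells, 429.7 CPM in B cells, 425.4 CPM in monocytes/macrophages and 226.3 CPM in proximal tubule cells. The intervals of dendritic, B and monocyte/macrophage cells and of cells with injury markers but no segment (424.9 CPM) overlapped, so these 4 classes were not told apart. The ambient droplets held 259.9 CPM in the pooled libraries, which is above the proximal tubule, thick ascending limb (232.7 CPM) and distal convoluted tubule cells (233.5 CPM). Podocyte cells were at 212.8 CPM [137.7 to 314.2], an interval that included the value of the droplets. The pooled values also reflect how many cells and droplets each library gave: without library 3 the S level of proximal tubule cells was 141.4 CPM and that of the ambient droplets 133.8 CPM, so the order was opposite.

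Among the G2/M genes 1 gene, Cks2, held 47296 of the 91195 UMIs, so the list was summed without it (21 genes, a choice made after the values were seen). Without Cks2 the G2/M genes summed to 617.4 CPM [589.4 to 646.3] in T and NK cells, 408.7 CPM [385.3 to 433.1] in stromal cells, 399.7 CPM in dendritic cells, 332.5 CPM in monocytes/macrophages and 314.7 CPM in cells with injury markers but no segment. The last value rested on library 3, without which it was 94.92 CPM. The stromal value rested on library 2 and was 120.6 CPM without it and 748.4 CPM without library 1. The same G2/M genes summed to 122.5 CPM in proximal tubule cells, 103.4 CPM in B cells, 101 CPM in distal convoluted tubule cells and 85.97 CPM in neutrophils, against 95.05 CPM in ambient droplets. Proximal tubule cells stayed above the ambient droplets whichever library was left out. The place of B, distal convoluted tubule and neutrophil cells against these droplets changed with single libraries. Without library 1, where 2 B cells held 82.5% of these UMIs, B cells were at 44.25 CPM (ambient droplets 103 CPM), and without library 5 distal convoluted tubule cells were at 50.07 CPM (ambient droplets 104 CPM) but without library 3 at 165.4 CPM (ambient droplets 74.53 CPM). Neutrophils were at 119.8 CPM without library 2 (ambient droplets 98.36 CPM). Thick ascending limb (62.69 CPM), intercalated (59.84 CPM), collecting duct principal (55.84 CPM) and endothelial cells (51.5 CPM [40.51 to 64.55]) lay below the ambient droplets, except that intercalated cells were above them without library 3 (109.2 against 74.53 CPM). With Cks2 the sum was 722.6 CPM in T and NK cells and 282.9 CPM in proximal tubule cells, against 224 CPM in ambient droplets.

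**Figure D1:**
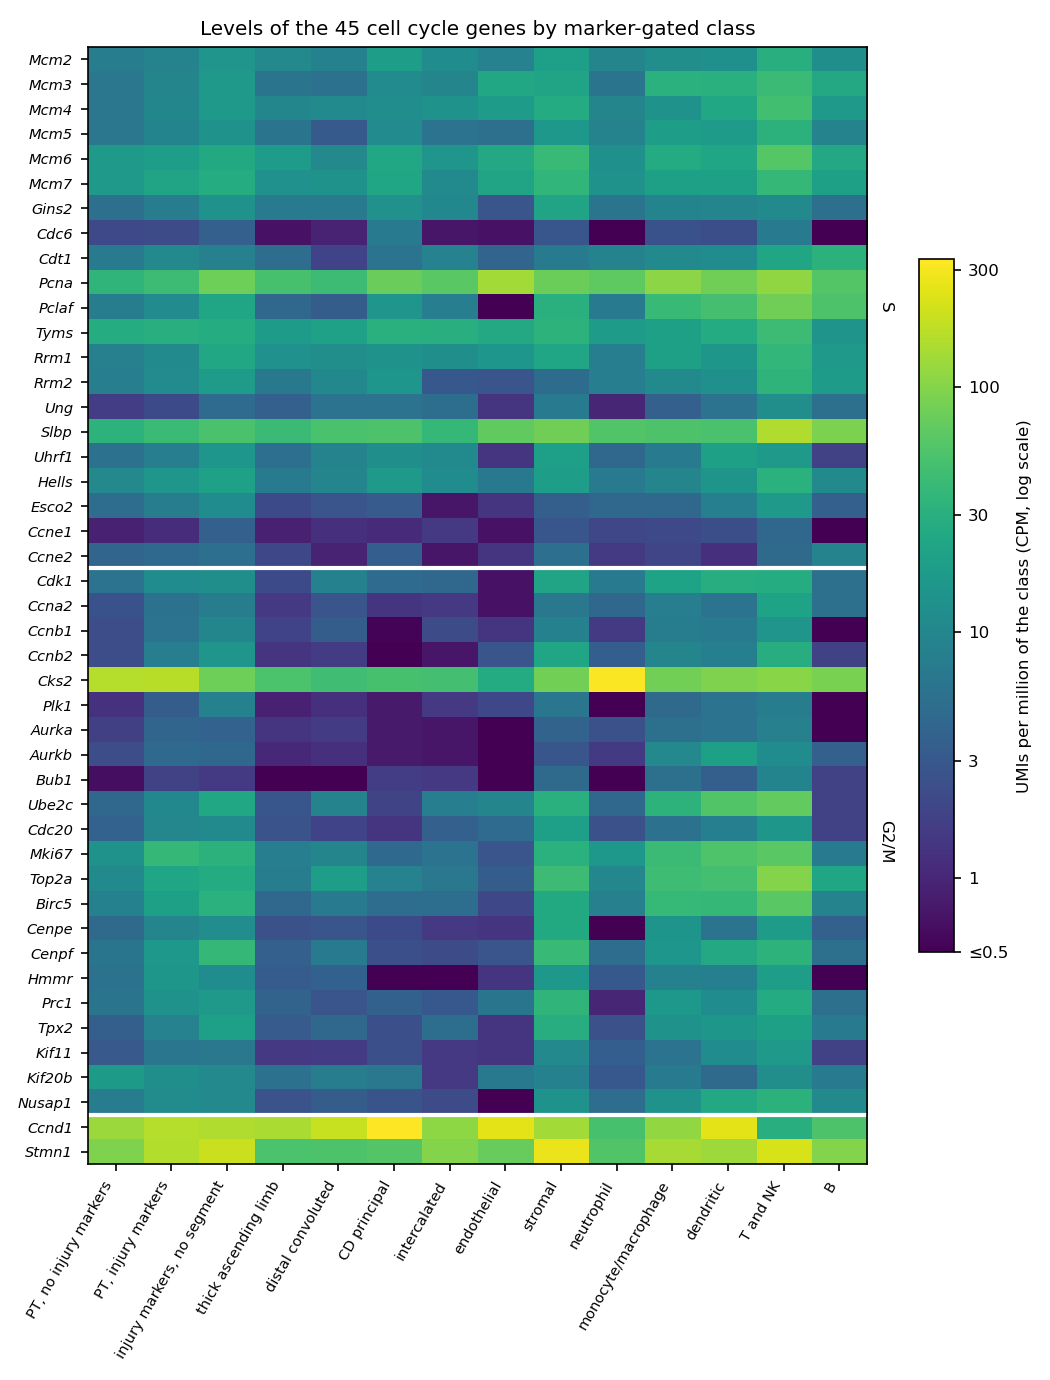
Level of each of the 45 genes (rows) in each marker-gated class except podocytes (columns), as CPM on a log color scale, with 0.5 CPM or less in the darkest color. T and NK cells are the brightest column for most genes, while Cks2, Ccnd1 and Stmn1 are bright in nearly all columns.

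Single genes followed the sums in most cases. Among classes with more than 3 UMIs of a gene, T and NK cells were the highest for 16 of 21 S genes and 12 of 22 G2/M genes. When 1 library at a time was left out, they were the highest for 13 to 16 S genes and 6 to 14 G2/M genes, with 6 G2/M genes without library 4 and 8 without library 1. A level at least 2 times that of all other gated cells was reached in T and NK cells by 18 of 21 S genes and by 20 of 22 G2/M genes, where 18.6% of the 17399 genes with at least 20 UMIs did so. The median log2 difference was 1.77 for the S genes and 2.10 for the G2/M genes, against -0.51 over all these genes. Cks2 and Kif20b were the G2/M genes that did not reach it, and Gins2, Tyms and Ccne2 the S genes.

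The helicase gene Mcm6 (chr1:128331590-128359664, ENSMUSG00000026355) was at 59 CPM in T and NK cells, 41.2 CPM in stromal cells, 16.5 CPM in proximal tubule cells and 10.6 CPM in distal convoluted tubule cells. Slbp (ENSMUSG00000004642), whose product binds the stem-loop of histone mRNA, was at 154 CPM in T and NK cells, 90.7 CPM in B cells and 33.6 CPM in proximal tubule cells. Tyms (ENSMUSG00000025747), the thymidylate synthase, varied least among the abundant S genes, with 43.2 CPM in T and NK cells, 33.3 CPM in stromal cells, 27.8 CPM in proximal tubule cells and 14.5 CPM in B cells. The G1/S cyclin gene Ccne1 and the licensing factor gene Cdc6 had the fewest UMIs of the S genes, 344 and 690 in kept cells. Ccne1 was at 4.38 CPM in T and NK cells and 0.911 CPM in proximal tubule cells, and Cdc6 was at 7.08 CPM in T and NK cells, 7.01 CPM in collecting duct principal cells and 2.08 CPM in proximal tubule cells.

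Pcna (chr2:132249162-132253314, ENSMUSG00000027342), the sliding clamp of DNA polymerase, was the most abundant S gene. It was highest in endothelial cells at 133 CPM [115 to 153], against 111 CPM [99.6 to 124] in T and NK cells, 106 CPM in monocytes/macrophages and 35.1 CPM in proximal tubule cells. The intervals of the first 2 classes overlapped. Pclaf, whose product binds the clamp, differed from Pcna in the same cells: it had 81.6 CPM in T and NK cells and 7.90 CPM in proximal tubule cells, but 0 UMIs in endothelial cells, which allows up to 2.06 CPM (3 UMIs). Other S genes with their highest level outside T and NK cells were Gins2 of the helicase complex (22.2 CPM in stromal cells, 11.1 CPM in T and NK cells), the licensing factor gene Cdt1 (32.6 CPM from 18 UMIs in B cells, 23.3 CPM in T and NK cells), Ccne2 (9.07 CPM from 5 UMIs in B cells) and the DNA methylation cofactor gene Uhrf1 (20.2 CPM from 17 UMIs in dendritic cells, 19.7 CPM in stromal cells). The other 10 S genes, the helicase genes Mcm2, Mcm3, Mcm4, Mcm5 and Mcm7, the ribonucleotide reductase genes Rrm1 and Rrm2, and Hells, Esco2 and Ung, were highest in T and NK cells at 12.5 CPM (Ung) to 45.9 CPM (Mcm4), against 1.68 CPM (Ung) to 16.9 CPM (Mcm7) in proximal tubule cells.

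Mki67 (chr7:135689784-135716361, ENSMUSG00000031004) was at 62.7 CPM in T and NK cells, 55.8 CPM in dendritic cells, 42.1 CPM in monocytes/macrophages, 15.4 CPM in proximal tubule cells and 2.75 CPM in endothelial cells. Top2a (chr11:98992943-99024189, ENSMUSG00000020914) was at 98.8 CPM in T and NK cells, 47.5 CPM in dendritic cells, 44.1 CPM in monocytes/macrophages, 43 CPM in stromal cells, 11.9 CPM in proximal tubule cells and 3.43 CPM in endothelial cells. Both genes thus had the same classes at the top and endothelial cells far below. The mitotic kinase genes Bub1 and Plk1 had the fewest UMIs of the list, 312 and 555. Bub1 was at 9.44 CPM in T and NK cells and 0.698 CPM in proximal tubule cells. Of 1456381 endothelial UMIs 0 were Bub1, which allows up to 3 UMIs and so does not place endothelial below proximal tubule cells. Plk1 was at 8.57 CPM in cells with injury markers but no segment, whose summed G2/M level rested on library 3, and 7.76 CPM in T and NK cells. The other 9 G2/M genes highest in T and NK cells were the cyclin genes Ccna2, Ccnb1 and Ccnb2, the kinase gene Aurka, Ube2c, the chromosomal passenger gene Birc5 and the spindle genes Hmmr, Kif11 and Nusap1, with 8.43 CPM (Aurka) to 69.1 CPM (Ube2c), against 1.86 CPM (Aurka) to 9.26 CPM (Birc5) in proximal tubule cells.

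Stromal cells held the highest level of 5 G2/M genes. These were Cdc20, the activator of the anaphase-promoting complex (19.4 CPM, against 15.5 CPM in T and NK cells), the kinetochore genes Cenpe (25.8 against 18.2 CPM) and Cenpf (41.2 against 33.4 CPM), and the spindle genes Prc1 (34.8 against 27 CPM) and Tpx2 (28.7 against 19.9 CPM). All 5 rested on library 2, without which the stromal level was 4.02 CPM for Cdc20, 6.32 CPM for Cenpe, 8.04 CPM for Cenpf, 6.32 CPM for Prc1 and 14.9 CPM for Tpx2, against 19.2, 18.7, 38.5, 29.4 and 21.9 CPM in T and NK cells. Dendritic cells were highest for the kinase genes Cdk1 (28.5 CPM, 27.7 CPM in T and NK cells) and Aurkb (20.2 CPM, 11.8 CPM in T and NK cells). Of the 152 dendritic cells, 9 held 87.5% of the UMIs of the G2/M genes other than Cks2. Kif20b (chr19:34922361-34975745, ENSMUSG00000024795), a kinesin of cytokinesis, was the 1 gene highest in proximal tubule cells, at 16.9 CPM against 12.5 CPM in T and NK cells. Without library 5 it was at 9.84 CPM in proximal tubule cells and 12.8 CPM in T and NK cells, so its place rested on that library.

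Cks2 (chr13:51645232-51650660, ENSMUSG00000062248) had at least 1 UMI in 42.7% of kept cells. It was highest in neutrophils, which are terminally differentiated, at 313.7 CPM [289.6 to 339.3], followed by proximal tubule cells (160.4 CPM) and T and NK cells (105.2 CPM), and lowest in endothelial cells (27.47 CPM), against 129 CPM in ambient droplets. The level in neutrophils was 407.7, 370.4, 233.9 and 456.7 CPM in libraries 1 to 4. In each of these 4 libraries it lay above that of proximal tubule cells, which was 198.3, 154.3, 178.8 and 160.4 CPM. No annotated gene of the matrix overlapped Cks2, Kif20b or any other of the 45 genes on the same strand.

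Ccnd1 and Stmn1 were broad. Ccnd1 (41410 UMIs) was highest in collecting duct principal cells (322.1 CPM), followed by endothelial (255.4 CPM), dendritic (255 CPM) and distal convoluted tubule cells (192.7 CPM), and it was at 126 CPM in proximal tubule cells and 29 CPM in T and NK cells, the lowest of all classes. Stmn1 (32598 UMIs) was at 273.5 CPM in stromal cells, 222.5 CPM in T and NK cells, 195 CPM in cells with injury markers but no segment, 97.1 CPM in proximal tubule cells and 52.5 CPM in thick ascending limb cells.

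In other classes the counts of members at least 2 times above all other gated cells were as follows. In stromal cells 13 S and 16 G2/M genes reached it, where 29.7% of all genes did, with median log2 differences of 1.15 and 1.64 against 0.32 over all genes. Without library 2 these counts were 6 S and 2 G2/M genes (28.2% of all genes), and the G2/M median was -0.40. In monocytes/macrophages 6 S and 15 G2/M genes reached it (17.2% of all genes), and in dendritic cells 7 S and 15 G2/M genes (16.2%). The medians were 0.59 (S) and 1.46 (G2/M) in monocytes/macrophages and 0.63 and 1.65 in dendritic cells. Without library 3 the level was reached by 16 S and 19 G2/M genes in monocytes/macrophages (19.2% of all genes) and by 16 of each in dendritic cells (17.1%). The cells set against a class were mostly proximal tubule, so the counts also move with the level there. Without library 3 the S level was 141.4 in place of 226.3 CPM in proximal tubule cells and 464.9 in place of 425.4 CPM in monocytes/macrophages. The G2/M level without Cks2 was 98.76 in place of 122.5 CPM and 446.6 in place of 332.5 CPM. In cells with injury markers but no segment, 10 S and 11 G2/M genes reached it (20.7% of all genes), but 9 S and 3 G2/M genes without library 3 (25.4%) and 4 S and 11 G2/M genes without library 5 (18.8%). Of the 741 cells of this class only 3 came from library 5, so the last count moved mainly with the cells set against it.

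Among the classes counted in this way, endothelial and collecting duct principal cells had most G2/M genes at a low level. Thick ascending limb, distal convoluted tubule, intercalated, podocyte, neutrophil and B cells were not counted. Among classes with more than 3 UMIs of the gene, thick ascending limb cells were lowest for Cdk1 (2.17 CPM), Plk1 (0.914 CPM) and further G2/M genes. In endothelial cells 17 of 22 G2/M genes were at least 2 times below other cells (32.4% of all genes were) and 0 were at least 2 times above (25.6% of all genes). Bub1, with 0 UMIs, was among the 17. Of the 21 S genes 7 were below, close to the background, and 3, namely Mcm3, Mcm4 and Pcna, were above. In collecting duct principal cells 16 G2/M genes were at least 2 times below (26.7% of all genes) and 0 above, whereas 5 S genes, Cdc6, Gins2, Mcm2, Uhrf1 and Ung, which codes for the uracil glycosylase of base excision repair, were above, a share near the 22.3% of all genes. In proximal tubule cells 0 S genes and 2 G2/M genes, Cks2 and Kif20b, were at least 2 times above the other gated cells (13.4% of all genes), while 7 S and 10 G2/M genes were at least 2 times below, where 33.3% of all genes were. Without library 3 these were 17 S and 18 G2/M genes (35.9%), and without library 2 they were 3 S and 6 G2/M genes (31.2%).

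Marker genes of other classes were present in these cells. In T and NK cells the 9 T markers summed to 5425 CPM and the 7 NK markers to 2794 CPM, beside 1871 CPM of proximal tubule markers, 407 CPM of monocyte/macrophage markers and 4.72 CPM of B markers (4 of 7 at 0). In stromal cells the stromal markers summed to 11016 CPM, beside 1245 CPM of injury markers and 1055 CPM of proximal tubule markers. In neutrophils the neutrophil markers summed to 88149 CPM, beside 3279 CPM of proximal tubule markers and 2131 CPM of injury markers, and cells with injury markers but no segment held 6229 CPM of injury markers, 1158 CPM of proximal tubule markers and 367 CPM of thick ascending limb markers. Podocytes held 4154 CPM of proximal tubule markers beside 5159 CPM of their own, and collecting duct principal cells 5297 CPM of injury markers beside 7323 CPM of their own. The injury markers also summed to 3295 CPM in thick ascending limb cells, against 2117 CPM in proximal tubule cells with injury markers. The list was thus not particular to proximal tubule cells. The part of this foreign RNA in the cell cycle levels was not tested.

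The ratio of S to G2/M UMIs, without Cks2, ordered the classes differently. It sets lists of unlike abundance against each other, so a ratio of 0 does not mark a balance of phases. Pcna, Slbp and Tyms stayed in the S list and gave 9354, 8947 and 7400 of its 60337 UMIs in proximal tubule cells. The part of such genes in the order was not tested. The log2 ratio was 2.84 [2.49 to 3.21] in endothelial cells, 2.74 in collecting duct principal cells, 2.18 in intercalated cells, 2.06 in B cells and 1.89 in thick ascending limb cells. It was 1.60 in neutrophils, 1.45 in ambient droplets, 1.21 in distal convoluted tubule cells and 0.89 in proximal tubule cells. It was lowest where the G2/M level was high: 0.43 in T and NK cells, 0.36 in monocytes/macrophages, 0.30 in stromal cells, 0.25 in proximal tubule cells with injury markers and 0.14 [-0.08 to 0.36] in dendritic cells, the 1 class whose interval included 0. The sign differed between libraries in many of these classes. The ratio was 2.20, -0.59 and 0.31 in stromal cells of libraries 1 to 3, 0.26, 0.83, 2.35, -0.59 and -0.60 in T and NK cells of libraries 1 to 5, and 1.07, -0.11, 0.82, -1.58 and -1.39 in proximal tubule cells with injury markers. In intercalated cells of libraries 2 and 3 it was -0.50 [-1.32 to 0.29] and 3.76, where the first interval included 0. The pooled ratios and their order thus depended on the mix of libraries. With Cks2 the ratio of proximal tubule cells was -0.32 and that of neutrophils was -0.62, so the sign in both classes depended on this 1 gene.

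**Figure D2:**
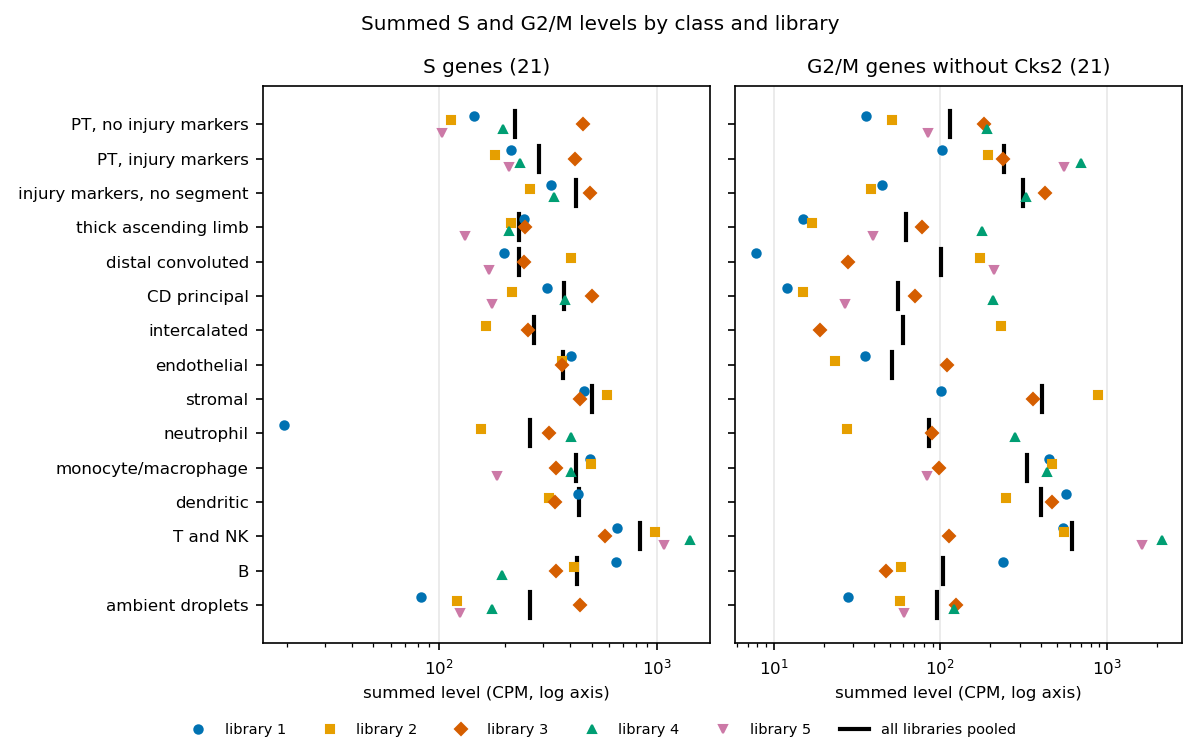
Summed level (CPM, log axis) of the 21 S genes and of the 21 G2/M genes without Cks2 in each class except podocytes and in ambient droplets. Each point is 1 library with at least 20 cells of the class and the black tick is the pooled value. T and NK cells have the highest pooled value in both panels, and the points of 1 class lie far apart.

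The libraries differed within each class. In proximal tubule cells the S genes summed to 150, 119.7, 456, 197.3 and 103.3 CPM in libraries 1 to 5, so that library 3 stood above the other 4. All 21 S genes were highest in library 3, and 18 were at least 2 times above the other libraries (16.7% of all genes were), with a median log2 difference of 2.32. Without library 3 the pooled S level of proximal tubule cells was 141.4 CPM in place of 226.3 CPM. The ambient droplets had the same order at the top, with 83.08, 120.9, 444, 174.8 and 124.8 CPM. Proximal tubule cells were thus above them in libraries 1 and 4 and below in library 5. In libraries 2 and 3 the intervals overlapped. The part of free RNA in the level of library 3 was not tested.

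The G2/M genes without Cks2 summed to 40.73, 64.04, 186.6, 205.2 and 87.72 CPM in proximal tubule cells of libraries 1 to 5, and to 27.8, 57.4, 125, 120.3 and 60.25 CPM in the ambient droplets. Here libraries 3 and 4 stood above the other 3, and the value of proximal tubule cells was above that of the ambient droplets in all 5 libraries. In library 2, however, the droplets had only 142 of these UMIs and the intervals overlapped. Without Kif20b as well, proximal tubule cells were above in libraries 1, 3 and 4 but not in library 2 (49.12 against 50.53 CPM) or library 5 (39.86 against 47.69 CPM). Of the 22 G2/M genes 13 were highest in library 4, 7 in library 3, Kif20b in library 5 and Cks2 in library 1. In library 4 a level at least 2 times above the other libraries was reached by 13 G2/M genes and 0 S genes, where 2.41% of all genes reached it. In library 3 it was reached by 11 G2/M genes, where 16.7% of all genes reached it. Such counts, for the S genes too, were made only for libraries 3 and 4, which had the highest sums of these same genes. They therefore add no separate support to the sums. The log2 ratio of S to G2/M UMIs without Cks2 in proximal tubule cells was 1.88, 0.90, 1.29, -0.06 and 0.24 in libraries 1 to 5. In library 5 the 1 gene Kif20b held 54.6% of these G2/M UMIs, and the ratio without it was 2.07, 1.28, 1.37, 0.01 and 1.37, so only library 4 stayed near 0.

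Named genes of the proximal tubule cells showed these 2 patterns. The helicase-like chromatin gene Hells was at 1.63, 2.36, 32.3, 7.12 and 1.34 CPM in libraries 1 to 5, and Uhrf1 was at 1.06, 1.08, 17.1, 3.72 and 0.364 CPM, both with library 3 far above the rest. Mcm6 was at 12.2, 8.85, 29.6, 17 and 9.31 CPM, and Pcna was at 22.9, 21.4, 65.3, 30.5 and 21.3 CPM. Slbp differed less, with 40.8, 22.6, 47.8, 28.7 and 22.5 CPM, as did Tyms with 24.4, 22, 42.3, 26.9 and 16.5 CPM. Cdc6 was at 0.419, 0.151, 6.16, 1.49 and 0.304 CPM, and Ccne1 was at 0.110, 0.227, 2.18, 1.28 and 0.182 CPM.

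Mki67 was at 2.94, 6.68, 28.4, 29.7 and 3.38 CPM in proximal tubule cells of libraries 1 to 5, so libraries 3 and 4 were close to each other and above the other 3. Top2a was at 2.67, 3.52, 26.2, 18 and 2.87 CPM, higher in library 3 than in library 4. Ube2c, which codes for the ubiquitin-conjugating enzyme of the anaphase-promoting complex, had the opposite order of these 2 libraries, with 2.34, 2.06, 5.28, 12.2 and 1.68 CPM. Cenpf likewise was at 1.66, 3.82, 8.84, 16.3 and 2.43 CPM. Plk1 was at 0.574, 0.605, 2.04, 3 and 0.465 CPM and Bub1 at 0.132, 0.378, 1.25, 1.30 and 0.182 CPM. Kif20b was at 5.06, 14.9, 9.63, 9.05 and 47.9 CPM, where library 5 stood above the rest, and Cks2 was at 198.3, 154.3, 178.8, 160.4 and 105.5 CPM, with library 5 below the rest. Ccnd1 was at 108, 105, 179, 161 and 55.3 CPM and Stmn1 at 90, 66.6, 132, 112 and 71.7 CPM.

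**Figure D3:**
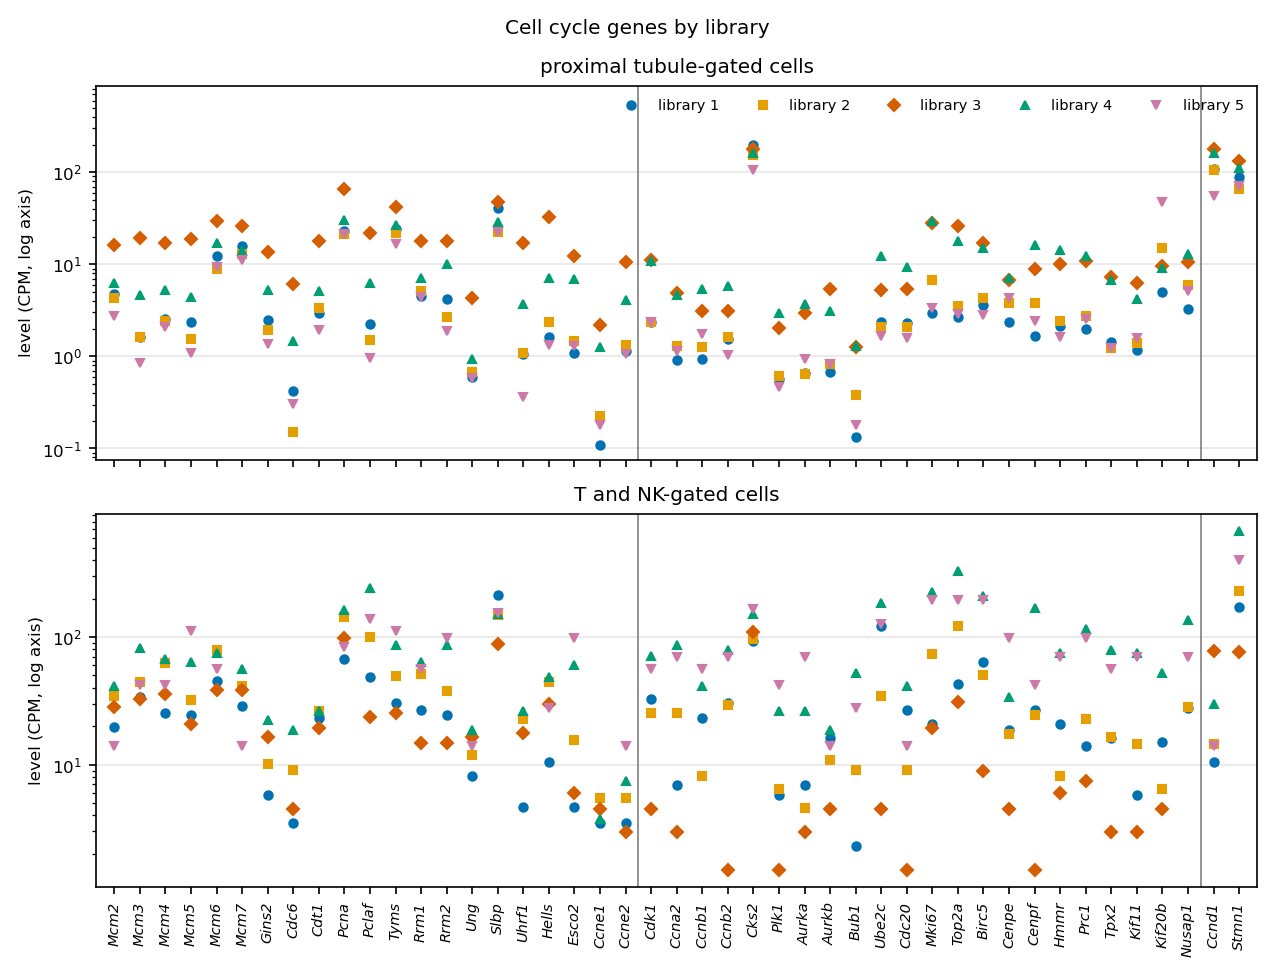
Level (CPM, log axis, values of 0 not drawn) of the single genes by library number in proximal tubule cells and in T and NK cells. The S genes of proximal tubule cells peak in library 3 and most G2/M genes in library 3 or 4, whereas library 3 is the lowest for most G2/M genes of T and NK cells.

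T and NK cells had a different order of the libraries. The S genes summed to 654.6, 977.5, 577.4, 1410 and 1073 CPM and the G2/M genes without Cks2 to 546.7, 549.1, 113.1, 2128 and 1631 CPM in libraries 1 to 5, with 511, 437, 320, 116 and 38 cells. Library 3 was thus the lowest for both sums, and it was the lowest library for 20 of 22 G2/M genes, while library 4 was the highest for 17. Mki67 was at 20.9, 74, 19.4, 225.6 and 195.2 CPM, Top2a at 42.9, 122.4, 31.3, 327.1 and 195.2 CPM, and Stmn1 at 170.6, 230.2, 75.9, 680.5 and 404.3 CPM. Slbp had another order, with 212.4, 149.8, 87.8, 150.4 and 153.3 CPM. Compared within libraries, the S level of T and NK cells was above that of proximal tubule cells in 5 of 5 libraries, and the G2/M level in 4 of 5, the exception being library 3 (113.1 against 186.6 CPM). In libraries 4 and 5 the G2/M level lay in few cells: 15 of 116 and 2 of 38 cells held 96.3% and 98.3% of the G2/M UMIs without Cks2, and the other cells were at 107.8 and 33.7 CPM.

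In monocytes/macrophages the G2/M genes without Cks2 summed to 447, 468.4, 98.18, 435 and 82.89 CPM in libraries 1 to 5, and Mki67 was at 41.8, 75.3, 9.33, 47.7 and 18.4 CPM. Libraries 3 and 5 were low and the other 3 high. In stromal cells the sum was 101.1, 887.1 and 358.2 CPM in libraries 1 to 3 (155, 101 and 39 cells), while the S level was 463.1, 589.5 and 442.9 CPM. The stromal G2/M level therefore rested on library 2: it was 408.7 CPM in all, 120.6 CPM without library 2 and 748.4 CPM without library 1. In endothelial cells the S level was 401.6, 364.4 and 364.7 CPM in libraries 1 to 3 and differed little, whereas the G2/M level was 35.12, 23.51 and 109.2 CPM. In library 3, however, 1 of 82 endothelial cells held 72.7% of these G2/M UMIs. Outside cells with at least 3 of these genes the level was 28.9, 23.51 and 30.23 CPM. With Cks2 the endothelial G2/M level was 78.96 CPM, and 50.32 CPM without library 3. Cells with injury markers but no segment came mostly from library 3 (549 of 741), and their G2/M level with Cks2 was 394.3 CPM, or 163.1 CPM without that library. In distal convoluted tubule cells 1 cell of library 5 held 86.5% of the UMIs of the G2/M genes other than Cks2 in that library.

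The UMIs of the G2/M genes other than Cks2 were counted in cells that held several of these genes. The cells were selected on the UMIs that are then counted, so the shares of UMIs are a description. Of the 46365 proximal tubule cells, 951 (2.05%) had UMIs of at least 3 G2/M genes other than Cks2, and these cells held 72.3% of the UMIs of these 21 genes in the class but 3.17% of all its UMIs. The 21 genes summed to 35.1 CPM in the remaining proximal tubule cells. These cells were deeper than the class, with a median of 7622 UMIs against 5021, and in T and NK cells the median was 4584 against 1672. In T and NK cells 50 of 1422 cells (3.52%) held 88.6% of these UMIs (10.2% of all UMIs), in monocytes/macrophages 77 cells (4.62%) held 88.6%, in stromal cells 25 cells (7.89%) held 91.8%, and in cells with injury markers but no segment 47 cells (6.34%) held 92.2%. When 5964 cells with a high doublet score were left out, the G2/M level with Cks2 was 750 CPM in T and NK cells and 284.7 CPM in proximal tubule cells, close to the values with them. In endothelial cells 2 of 322 cells, in neutrophils 4 of 1329 and in B cells 2 of 348 had as many G2/M genes. In proximal tubule cells of libraries 1 to 5 the share of such cells was 0.516%, 0.628%, 4.19%, 2.96% and 0.450%.

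How far a gene was concentrated in these cells separated the members. In proximal tubule cells the share of a gene's UMIs lying in cells with at least 3 other G2/M genes was 93.4% for Hmmr, a spindle protein gene, 92.2% for Mki67, 88.1% for Prc1, 86% for Ube2c, 84.8% for Plk1 and 84.1% for Top2a. Among the S genes it was 86.8% for Esco2, the cohesin acetyltransferase gene, 75.5% for Rrm2, the inducible subunit of ribonucleotide reductase, and 73.9% for Pclaf, but 24.6% for Pcna, 20.2% for Mcm6, 19% for Slbp, 17.5% for Mcm7 and 16.3% for Tyms. Nusap1 (51.9%), Cenpe (49.9%) and Kif20b (16.3%) were lower than most of the G2/M list, Cks2 was at 6.70% and Ccnd1 at 4.55%, and Stmn1 was at 29.7%. In T and NK cells the share was 36.2% for Cks2, 54.1% for Kif20b, 76.1% for Stmn1 and 23.2% for Slbp. There such cells held 10.2% of all UMIs, against 3.17% in proximal tubule cells, so the shares of the classes are not comparable as they stand. Divided by the share of all UMIs, Cks2 was at 3.54 in T and NK cells and 2.12 in proximal tubule cells, Kif20b at 5.28 and 5.45, and Stmn1 at 7.43 and 9.37. This quotient has a lower ceiling in T and NK cells, where Cdc20 with a share of 97.8% was at 9.56. In proximal tubule cells Mki67 with a share of 92.2% was at 30.5. The quotients therefore do not rank the 2 classes either.

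**Figure D4:**
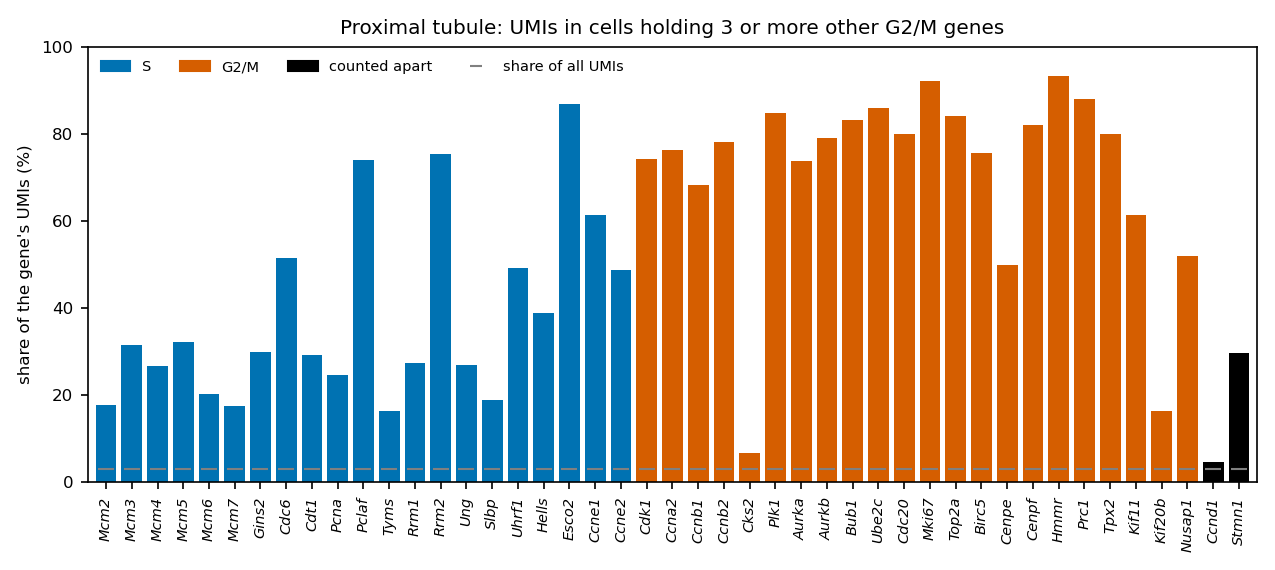
Share (percent) of each gene's UMIs in proximal tubule cells that lay in cells with UMIs of at least 3 other G2/M genes, Cks2 not counted. Grey dashes mark the share of all UMIs held by such cells. Hmmr and Mki67 exceed 90%, whereas Cks2 and Ccnd1 lie near the grey dashes.

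To compare classes of different depth, each cell was thinned to 1000 UMIs and cells with UMIs of at least 2 genes of a list were counted. Shallower cells were left out (6117 of the proximal tubule and 122 of the T and NK cells). At least 2 S genes were seen in 10.8% of T and NK cells, 6.05% of cells with injury markers but no segment, 5.35% of stromal, 5.01% of monocyte/macrophage and 3.39% of proximal tubule cells. Among barcodes not called as cells the share was 2.44% (209 of 8578 droplets, 191 of the 209 from library 3), and in neutrophils it was 2.37%. At least 2 G2/M genes without Cks2 were seen in 4.61% of dendritic, 3.68% of stromal, 3.54% of T and NK, 2.93% of monocyte/macrophage, 2.45% of cells with injury markers but no segment and 1.34% of proximal tubule cells. The share was 0.493% in neutrophils, 0.466% in the uncalled droplets, 0.478% in thick ascending limb and 0.318% in B cells, which were all close to these droplets, of which 4760 came from library 3. Of 34 podocytes deep enough 0 had 2 S genes, which allows a share of up to 8.82% (3 cells). Without thinning the G2/M share was 3.65% in proximal tubule cells, 4.78% in T and NK cells, 12.6% in stromal cells and 0.602% in neutrophils.

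By library, the thinned share of proximal tubule cells with 2 S genes was 0.905%, 0.710%, 8.53%, 2.59% and 0.593% in libraries 1 to 5, and with 2 G2/M genes without Cks2 it was 0.368%, 0.469%, 2.52%, 2.25% and 0.350%. Libraries 3 and 4 were again above the other 3 for both lists. The S share of the uncalled droplets was 0.107%, 0 of 467 (which allows up to 0.642%), 4.01%, 1.20% and 0.354% in libraries 1 to 5. Its exact interval overlapped that of the proximal tubule cells in libraries 2 and 5 but not in libraries 1, 3 and 4. In the uncalled droplets of the same libraries the G2/M share was 0 of 937 (which allows up to 0.320%), 0.214%, 0.693%, 0.400% and 0.142%, and its exact interval overlapped that of the proximal tubule cells in libraries 1, 2 and 5 but not in libraries 3 and 4. In T and NK cells the G2/M share was 2.69%, 3.61%, 0.678%, 14% and 5.56%. When cells were thinned to 2000 UMIs, 35378 proximal tubule cells and only 471 of 1422 T and NK cells were deep enough. Of these, 683 proximal tubule cells had at least 2 G2/M genes without Cks2, and 512 of them (75%) also had at least 2 S genes. These 512 were 21.2% of the 2416 proximal tubule cells with at least 2 S genes. The shares were 78.7% and 29.6% in T and NK cells and 57.4% and 22% in monocytes/macrophages.

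**Figure D5:**
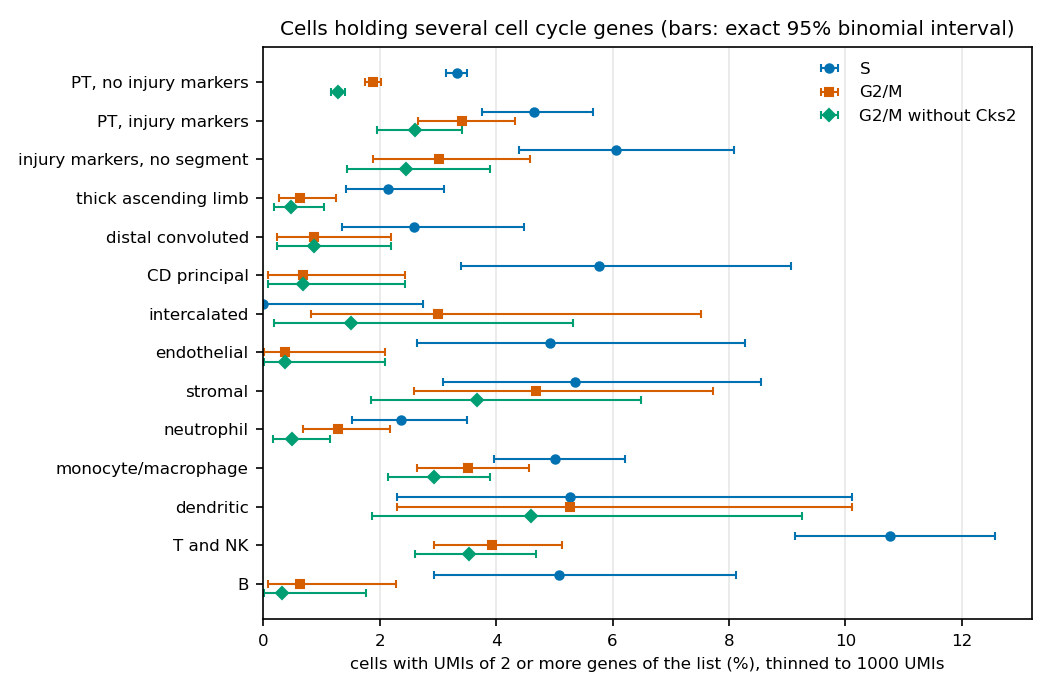
Share of cells (percent) with UMIs of at least 2 genes of a list after thinning to 1000 UMIs, by class, with exact 95% binomial intervals as bars. T and NK cells have the highest share for the S genes at 10.8%, and neutrophils, B and endothelial cells lie below 1% for the G2/M genes without Cks2.

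Proximal tubule cells with injury markers had more G2/M RNA than those without. The G2/M genes without Cks2 summed to 240.4 CPM in the 2086 cells with injury markers and 115.1 CPM in the 44279 without, a log2 difference of 1.06 [1.01 to 1.11]. The level with injury markers was 101.9, 193.4, 237.8, 701.2 and 549 CPM in libraries 1 to 5, and the level without was 36, 51.19, 181.8, 191.2 and 84.89 CPM. The cells with injury markers were thus higher in 5 of 5 libraries, by 0.39 (log2) in library 3 and by 1.502 to 2.69 in the others. In library 5 there were 41 such cells, and 1 of them held 95.8% of their G2/M UMIs without Cks2. Over all libraries, 93 of the 2086 cells (4.46%) had at least 3 of these genes and held 88.7% of these UMIs. Without injury markers 858 cells (1.94%) held 70.1%. The remaining cells were at 29 CPM with injury markers and at 35.4 CPM without. Cells with injury markers were also deeper (median 6498 against 4950 UMIs), and the part of depth in the CPM levels was not tested. After thinning to 1000 UMIs, at least 2 G2/M genes without Cks2 were seen in 1.11%, 1.49%, 2.84%, 8.70% and 2.5% of them in libraries 1 to 5. The shares without injury markers were 0.32%, 0.40%, 2.49%, 2.11% and 0.34%. With injury markers these were only 4, 7, 27, 12 and 1 cells, and the exact intervals overlapped in libraries 1, 3 and 5.

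The S genes differed less, with 285.9 CPM against 222.5 CPM (log2 difference 0.36 [0.32 to 0.41]), and in library 3 the sign was opposite (-0.13). A level at least 2 times above cells without injury markers was reached by 17 of 22 G2/M genes and 0 of 21 S genes, where 16.9% of all genes reached it. Without library 5 it was reached by 10 G2/M genes (15.4% of all genes), and without library 3 by 19 G2/M and 7 S genes (18.1%). The log2 difference was 1.82 for Ccnb2, a mitotic cyclin gene, 1.49 for Bub1, 1.45 for Plk1, 1.43 for Hmmr and 1.42 for Mki67 (37.4 against 14 CPM, higher in 5 of 5 libraries). It was 0.59 for Nusap1, 0.02 for Cks2 and -0.45 for Kif20b. Kif20b was nevertheless higher with injury markers in 3 of 5 libraries, and its pooled sign followed library 5, where it was at 48 CPM in the 8401 cells without injury markers and at 23.3 CPM in the 41 cells with them. Among the S genes it ran from 0.08 (Tyms) to 0.59 (Esco2). Stmn1 was higher in 5 of 5 libraries (0.74) and Ccnd1 in 3 of 5 (0.39). With a gate that asked for 2 times the marker UMIs, the difference was 0.56 for the G2/M genes without Cks2 and -0.01 for the S genes.

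Other genes of the cycle, from 9 lists with 144 genes that hold none of the 45, were counted against the same background. Of the 40 genes of chromosome segregation and the spindle, 34 were at least 2 times above other cells in T and NK cells (18.6% of all genes were), 29 in stromal cells (29.7%), 25 in monocytes/macrophages (17.2%), 25 in cells with injury markers but no segment (20.7%) and 21 in dendritic cells (16.2%), while 23 were at least 2 times below in endothelial cells (32.4%) and 19 in proximal tubule cells (33.3%). In proximal tubule cells with injury markers 21 of these 40 were at least 2 times above those without (16.9% of all genes). Single libraries moved several of these counts: in stromal cells 8 of 40 were above without library 2 (28.2%), in monocytes/macrophages 14 without library 2 (16.7%), in cells with injury markers but no segment 12 without library 3 (25.4%), and in proximal tubule cells with injury markers 12 without library 5 (15.4%) and 32 without library 3 (18.1%), while 33 were below in proximal tubule cells without library 3 (35.9%) and 12 without library 2 (31.2%). In T and NK cells 31 to 36 were above with 1 library left out. The most abundant were Bub3, a checkpoint gene, and Smc4, a condensin gene, at 85.3 CPM and 147 CPM in T and NK cells and at 34.55 CPM and 25.31 CPM in proximal tubule cells without injury markers.

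Of the 21 fork and replisome genes, 17 were at least 2 times above other cells in T and NK cells (18.6% of all genes), 11 in stromal cells (29.7%), 0 in proximal tubule cells with injury markers (16.9%) and 16 in proximal tubule cells of library 3 against the other libraries (16.7%). Without library 3 the counts were 18 in stromal cells (32.2%) and 4 in proximal tubule cells with injury markers (18.1%). Rfc2, of the clamp loader, and Tipin were at 55.6 CPM and 38.1 CPM in T and NK cells. Of the 16 genes of the S phase checkpoint and repair, 11 were above in T and NK cells and 13 in library 3, against the same 18.6% and 16.7% of all genes, with Usp1 at 23.6 CPM in T and NK cells. Of the 12 genes of origin licensing and firing, 7 were above in T and NK cells (4 without library 2, where 17.9% of all genes were) and 9 in library 3, and Gmnn, the inhibitor of Cdt1, was at 47.5 CPM and Gins4 at 30.4 CPM in T and NK cells. In library 4, 0 genes of these 3 lists were at least 2 times above, but 12 of the 40 segregation genes were (2.41% of all genes).

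Of the 13 genes of mitotic entry and exit, 7 were above in T and NK cells (18.6% of all genes) and 6 in proximal tubule cells with injury markers (16.9%), and Ube2s and Pttg1 were at 268.7 CPM and 78.9 CPM in T and NK cells. Of the 8 nucleotide supply genes 3 were above and 2 below in T and NK cells, where 18.6% and 41.2% of all genes were. Dctpp1 was at 60.7 CPM in proximal tubule cells without injury markers and at 69.5 CPM in T and NK cells. Of the 14 E2F, MYB and FOXM1 regulators 6 were above in T and NK cells and 8 in library 3 (16.7%), with Rbbp4 and E2f4 at 133.5 CPM and 30.7 CPM in T and NK cells. Of the 6 G1 cyclins and kinases 4 were above in stromal cells (29.7% of all genes), where Cdk4 was at 223.3 CPM, and Myc was at 183.2 CPM in proximal tubule cells with injury markers and 75.2 CPM in those without. Of the 14 inhibitors and arrest genes 8 were above in stromal cells and 7 in T and NK cells, against the same 29.7% and 18.6%. Btg2 was at 2175 CPM in neutrophils, 1337 CPM in T and NK cells and 299.6 CPM in proximal tubule cells without injury markers, and Gadd45a was at 245.6 CPM in proximal tubule cells with injury markers and 122.2 CPM in those without.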

How the data were processed

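The authors sequenced droplet 3′ libraries of 5 kidney samples and counted reads with Cell Ranger 6.0 on mm10, per the submitters' processing notes. The paper describes a merge of more UIR and control matrices than the 5 samples of the series. The deposited values were raw UMI counts in 1 matrix of 32285 genes by 10474594 barcodes, not filtered for cells and with no normalization. The barcode suffix (1 to 5) marked the library but no label tied it to a condition, so the samples were handled as 1 pooled sample and no test, mean ± SD or p-value was used.

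Cells were called in 2 steps after the manner of Cell Ranger (expected 3000 cells per library, then a comparison with ambient ranks 45000 to 90000 for barcodes with at least 500 UMIs, 10000 simulations, adjusted p limit 0.01). At most 20000 barcodes per library were compared, which in library 3 set the lowest at 661 UMIs. Of 70553 called barcodes, 512 with under 200 genes and 12674 with over 25% of UMIs on 13 mitochondrial genes were left out. Doublets were kept, and leaving out cells by Scrublet score was an alternative. A cell entered a class when its markers made up at least 10 of 10000 UMIs (40 for proximal tubule, 100 for neutrophil and erythrocyte), with at least 3 UMIs of at least 2 markers. Injury markers had limits of 10 in proximal tubule cells and 20 in cells without a segment. Cells over the limits of more than 1 lineage other than proximal tubule were called mixed. So were non-tubule cells with at least 100 of 10000 UMIs on proximal tubule markers. Otherwise a cell over the proximal tubule limit and that of another class kept the other class. Within 1.25 times the limit lay 710 proximal tubule, 49 monocyte/macrophage, 64 neutrophil and 4 T and NK cells. UMIs were summed per class and expressed per 1000000 UMIs (CPM). Intervals were exact (Poisson, conditional binomial or Clopper-Pearson, 95%).

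The members and lists were chosen with earlier results of these data known. All 45 genes were accounted for, and values were given for the 4 most and 2 least abundant genes of each list, for Ccnd1, Stmn1, Mki67, Top2a, Mcm6 and Pcna, for genes whose highest class differed from that of most of their list, and for the 2 most abundant genes of each of the 9 pathway lists. For some of these the result is not reported here. A fold of 2 was read over genes with at least 20 UMIs in gated cells. Between libraries it was read only for proximal tubule cells of libraries 3 and 4. Summing the G2/M genes without Cks2 or without Cks2 and Kif20b, and leaving out single libraries for single genes, for ambient droplets and in classes other than T and NK and proximal tubule cells, were chosen after the data were seen. The calling and fold steps were tested on simulated data. Leiden clusters (resolution 1, 30 components, 20 neighbours, 2000 genes, 27 clusters) served as an alternative to the gate. Gene positions are from GENCODE vM21 (GRCm38) and promoter windows from RefSeq. Python 3.11.15, NumPy 2.4.6, SciPy 1.17.1, pandas 2.3.3, Scanpy 1.11.5, leidenalg 0.10.2 and matplotlib 3.10.9 were used.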

Additional observations from a re-analysis of the deposited data

How the results depend on the processing

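The G2/M level of T and NK cells (722.6 CPM) was 814.1 CPM with a mitochondrial limit of 10%, 791.8 CPM when 2 times the marker UMIs were required, 591.6 CPM with the class of the Leiden cluster, 945.1 CPM with Ccnd1 and Stmn1 added to the lists, 387.3 CPM as a mean over cells, 617.4 CPM without Cks2, 1117 CPM as a mean of libraries and 893.6 CPM after subtraction of the ambient share. Leaving out 1 library at a time gave 569.3 to 868.8 CPM. Their S level (834.2 CPM) was, in the same order of settings, 911.4, 894.9 and 708 CPM, then 880.6 CPM without high Scrublet scores, 606.3 CPM as a mean over cells, 938.6 CPM as a mean of libraries and 1031 CPM after ambient subtraction, and 750.3 to 909.4 CPM with 1 library left out. The log2 ratio of S to G2/M UMIs in T and NK cells (0.21 with Cks2) reversed to -0.13 with Ccnd1 and Stmn1 added and to -0.033 without library 2 (range with 1 library left out -0.033 to 0.45), and was 0.65 as a mean over cells and 0.43 without Cks2. In proximal tubule cells (-0.32) it reversed to 0.89 without Cks2, by construction, and was -0.26 with the lower mitochondrial limit, -0.36 with the stricter gate, -0.35 without high Scrublet scores, -0.11 with Ccnd1 and Stmn1 added, -0.22 as a mean over cells and -0.84 to -0.19 with 1 library left out. The S level of proximal tubule cells in library 3 (456 CPM) was 446.7 CPM without the calling step, 473.3 CPM with the lower mitochondrial limit, 430 CPM with the stricter gate, 464.4 CPM without high Scrublet scores and 635 CPM with Ccnd1 added. Their G2/M level in library 4 (365.6 CPM) was 488.1, 333.2 and 477.1 CPM under the mitochondrial, gate and added-gene settings, 337.8 CPM as a mean over cells and 205.2 CPM without Cks2. The thinned share of proximal tubule cells with 2 G2/M genes (1.955%) was 3.474% at 2000 UMIs, 0.9938% for 3 genes, 10.82% unthinned, 1.344% without Cks2 and 2.466% with the lower mitochondrial limit. That of T and NK cells (3.923%) was 11.25% at 2000 UMIs, where 951 of 1422 cells were too shallow and left out, and 5.907% unthinned. Causes were not tested beyond what a setting itself fixes. Under every setting T and NK cells kept the highest S level. For G2/M they did not with the Leiden class (cells with injury markers but no segment, 652.9 CPM), as a mean over cells (dendritic, 407.7 CPM) or without library 1 (stromal, 863 CPM). No paired analysis between conditions was possible because the barcode suffixes are tied to no condition or replicate. Classes of the same library were set side by side as values and counts, with no test. Depth limited small classes such as podocytes (78 cells) and rare members such as Bub1 (312 UMIs) and Ccne1 (344 UMIs).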

Other observations

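Cells outside the classes also held RNA of the cell cycle genes. In the 1702 cells that passed no gate the S genes summed to 408.9 CPM and the G2/M genes without Cks2 to 194.9 CPM, and in the 989 mixed cells to 309.9 CPM and 138.9 CPM. Both levels of the ungated cells lay above those of the proximal tubule class.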
